A study of Mus musculus with 12 samples.

Results

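The 29 genes described here encode enzymes of cholesterol synthesis and proteins that sense, take up, move, esterify or export sterols, and their transcripts were measured in mouse liver. They were chosen by symbol: a probe counted as a member when its accession in the array design mapped to a member symbol in the RefSeq gene table. 28 of the 29 genes had at least 1 probe, which gave 47 probes of the 41174 on the array and 28 of the 25260 genes or unnamed accessions that were analysed. 18 of these 28 are enzymes of synthesis and 10 are other members. All 28 passed the filter on dim spots. Idi1, an isomerase of the isoprenoid steps, was not matched to a probe and is not analysed here.

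The arrays compared C57BL/6 mice that all carried floxed Myc alleles (MycF/F), with or without ERT2-Cre, a recombinase that acts on floxed DNA once an estrogen receptor ligand is given, on a diet with 0.1% Wy-14643 or a control diet for 2 days. Wy-14643 activates PPARα, a receptor that turns on fatty acid oxidation genes in hepatocytes. The 4 groups were MycF/F,ERT2-Cre on Wy-14643 (4 arrays), MycF/F,ERT2-Cre on control diet (4 arrays), MycF/F on Wy-14643 (3 arrays) and MycF/F on control diet (1 array, of RNA labelled as pooled whole liver). The labels call MycF/F,ERT2-Cre livers "ko" and MycF/F livers "wt". The promoter that drives the Cre, any tamoxifen treatment, age, sex and whether arrays of a group came from separate animals are not stated in the sources used here, so every p-value below measures only the spread between these arrays, which may be technical.

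Each array carried sample RNA in Cy5 against a pooled whole liver reference in Cy3, and every level below is the log2 of Cy5 over Cy3 after normalization, so 0 means the level of the reference. Differences between groups are differences of these log2 ratios, tested with limma over all genes at a Benjamini-Hochberg adjusted p below 0.05. "Rose" and "fell" are used only for what passed that test. The 12 arrays lay on 3 slides of 4 arrays, each slide scanned at its own time. Slide 1 held MycF/F,ERT2-Cre Wy-14643 replicate 1, MycF/F,ERT2-Cre control replicates 1 and 2, and MycF/F Wy-14643 replicate 1. Slide 2 held replicate 2 of each Wy-14643 group, MycF/F,ERT2-Cre control replicate 3 and the MycF/F control array, and slide 3 held the rest. The median Cy5 signal was 2.64 to 4.82 times its background, 64.6% to 77.1% of spots were well above background in Cy5, and no spot was saturated in Cy5. The scanner software marked some spots as non-uniform or as population outliers in either colour, and these spots were left out of the test. Among 1485 bright spots such marks fell on 40.9% to 57.7% on the arrays of slide 1 and on 4.65% to 16.1% on the others, and 38 of the 65 marked spots of member genes (of 336) were on slide 1. Values per array are therefore printed with the marked spots kept, and where the marked spots change the call of a named gene the test is given both ways. The 5 hepatocyte markers measured were well above background on all 12 arrays. In livers on Wy-14643, 2 of 3 Myc probes were lower in MycF/F,ERT2-Cre than in MycF/F, with differences of -1.80 (adjusted p = 0.00466) and -1.82 (adjusted p = 0.0070), and the other differed by -0.51 (adjusted p = 0.697); where these probes lie relative to the floxed part is not known here.

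Cholesterol is built from acetyl-CoA through mevalonate, isoprenoid pyrophosphates, squalene and lanosterol. When sterols in the endoplasmic reticulum fall, Scap escorts the membrane-bound transcription factor SREBP-2, the product of Srebf2, to the Golgi, where it is cleaved and then activates the enzyme genes together with uptake genes. When sterols are plentiful, the Insig proteins hold Scap back and the oxysterol receptor LXR turns on export genes such as Abcg5 and Abcg8.

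Enzymes spread over the pathway rose after Wy-14643 in MycF/F,ERT2-Cre livers, with the widest differences in Hsd17b7 and Hmgcs1 at 3.34-fold each when marked spots were kept, whereas Srebf2, Scap and the sterol transport genes did not pass the test. Of 27 members that could be tested, 7 rose and none fell: Fdps, Fdft1, Cyp51, Msmo1, Nsdhl, Hsd17b7 and Insig1. That is 25.9%, where 9.09% of all genes rose and 7.26% fell, and 12 members had an unadjusted p under 0.05. With 1 array left out at a time 3 to 13 rose: 13 without control replicate 1 (8.52% of all genes), 3 without control replicate 3 (9.16%), and 4 each without control replicate 4 (7.47%) or Wy-14643 replicate 2 (7.05%), 3 (7.26%) or 4 (6.64%) of MycF/F,ERT2-Cre livers. The median difference of the members was 0.36, against 0.03 over all genes. With the marked spots kept, 5 of 28 rose (17.9%, where 8.88% of all genes rose and 7.22% fell): Hmgcs1, Insig2, and the shared Fdps, Fdft1 and Hsd17b7. In whole liver, fewer cells of a type and less RNA per cell cannot be told apart. As a check of the drug, 7 of 8 PPARα target genes rose and none fell, with a median difference of 3.27.

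**Figure D1:**
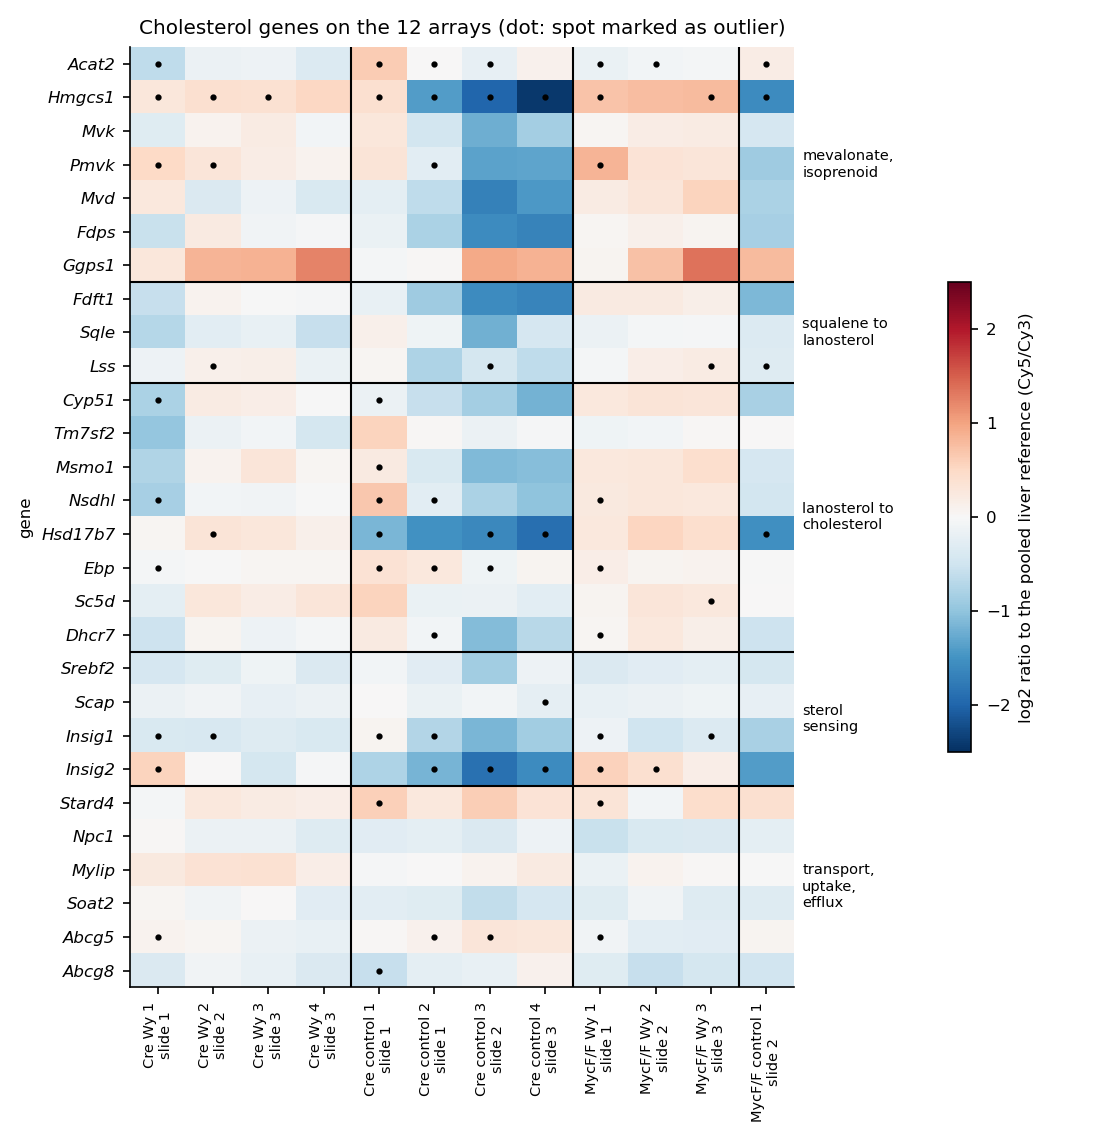
Log2 Cy5/Cy3 ratio of the 28 cholesterol genes (rows, by role) on the 12 arrays (columns, by group, with the slide given), marked spots kept and shown with a dot. In MycF/F,ERT2-Cre livers on control diet, replicate 1 stands above replicates 2 to 4 across most enzymes, with a mean of 0.138 against -0.442, -0.896 and -0.861.

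The control arrays of MycF/F,ERT2-Cre livers did not form a tight group for these genes. The mean log2 ratio over the 18 enzymes was -0.316, 0.117, 0.109 and 0.015 in Wy-14643-fed MycF/F,ERT2-Cre livers, against 0.138, -0.442, -0.896 and -0.861 in control-fed MycF/F,ERT2-Cre livers. It was 0.167, 0.262 and 0.306 in Wy-14643-fed MycF/F livers, against -0.501 in the MycF/F control. Control replicate 1 was thus the highest of the 8 MycF/F,ERT2-Cre arrays, and Wy-14643 replicate 1, from the same slide, was the lowest of the Wy-14643 arrays. Control replicates 1 and 2 shared slide 1, yet replicate 1 was higher for 17 of the 18 enzymes, with a median difference of 0.594. MycF/F,ERT2-Cre Wy-14643 replicates 3 and 4 also shared a slide, and there replicate 3 was higher for 11 of 18 with a median difference of 0.131. Some other gene sets were also high on control replicate 1, and some were low. On control diet in MycF/F,ERT2-Cre livers the mean of the hepatocyte markers was 0.492, 0.670, 0.760 and 0.652. The mean of the Kupffer cell markers was 0.106, 0.896, 0.526 and 0.166, so replicate 1 was the lowest of its group for both. The mean of the PPARα targets ran from 0.871 to 1.23 on Wy-14643 and was -1.74, -2.17, -1.83 and -2.30 on control diet in MycF/F,ERT2-Cre livers, so replicate 1 was the highest of its group. The mean of the intestine markers was -0.709 to -0.182 on Wy-14643 and 0.656, -0.045, -0.512 and -0.527 on control diet. The mean of the lipogenic genes driven by SREBP-1 was -0.310 to -0.106 on Wy-14643 and 0.871, 0.316, -0.236 and 0.014 on control diet. The part of these in the enzyme values was not tested.

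**Figure D2:**
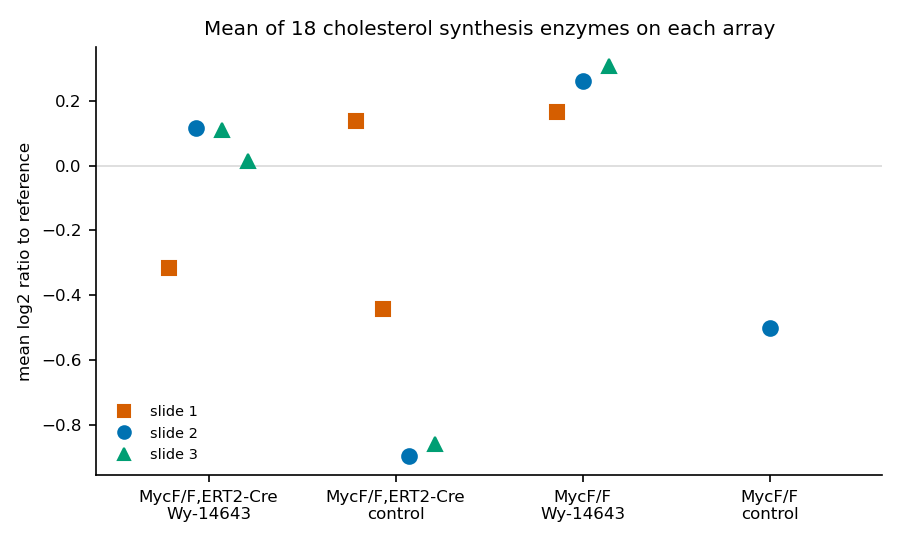
Mean log2 Cy5/Cy3 ratio of the 18 cholesterol synthesis enzymes on each array (1 point an array, coloured and shaped by slide, groups on the horizontal axis), marked spots kept. The MycF/F,ERT2-Cre control group has the widest spread, from -0.896 to 0.138, and overlaps its Wy-14643 group.

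The values within slides followed these arrays. On slide 1, 6 of 18 enzymes were higher on Wy-14643 than on control diet in MycF/F,ERT2-Cre livers, with a median difference of -0.298. On slide 2 it was 17 of 18 with a median of 1.11, and on slide 3 it was 15 of 18 with a median of 0.94. With slide 1 left out, which leaves 3 Wy-14643 and 2 control arrays, 12 of 25 testable members rose (10.2% of all genes did), and with the marked spots also kept 15 of 28 rose and 1, Abcg5, fell (10.3% and 7.59% of all genes). With slide as a block the count was 9 without and 8 with the marked spots, where 10.3% and 10.6% of all genes rose. Fdps and Fdft1 rose in all 6 of these settings. Hsd17b7 rose in every one in which it could be tested. With slide 1 and the marked spots both left out, it had no MycF/F,ERT2-Cre control spot. 8 members were higher on every slide (Hmgcs1, Pmvk, Mvd, Lss, Hsd17b7, Insig2, Mylip and Soat2) and Stard4 was lower on every slide, where 27.8% and 20.4% of all genes were.

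Among the enzymes that turn lanosterol into cholesterol, 4 of 8 rose (Cyp51, Msmo1, Nsdhl and Hsd17b7) and the median difference was 0.57. With marked spots kept, 1 of 8 did, Hsd17b7, and the median was 0.19. Hsd17b7, the ketoreductase that acts after sterol demethylation and that also converts estrone to estradiol, was higher on Wy-14643 on every slide. Its log2 ratio was 0.06, 0.33, 0.29 and 0.13 in Wy-14643-fed MycF/F,ERT2-Cre livers, against -1.15, -1.52, -1.61 and -1.88 in control-fed MycF/F,ERT2-Cre livers. It was 0.26, 0.53 and 0.43 in Wy-14643-fed MycF/F livers, against -1.54 in the MycF/F control. Every Wy-14643 array lay above every control array in both genotypes, and in MycF/F,ERT2-Cre livers the gap exceeded the range of either group. The difference in MycF/F,ERT2-Cre livers was 1.68 (SE 0.16, adjusted p = 0.000193) with 3 and 1 arrays left after marked spots were removed, and 1.74 (SE 0.14, adjusted p = 3.9e-06) with all 8. Within slides 1, 2 and 3 it was 1.39, 1.94 and 2.09. A second probe, with no marked spot, read 0.08, 0.33, 0.59 and 0.27 on Wy-14643 and -0.73, -1.33, -1.27 and -1.46 on control diet in MycF/F,ERT2-Cre livers. It gave 1.51 (SE 0.16, adjusted p over all probes = 4.95e-05).

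**Figure D3:**
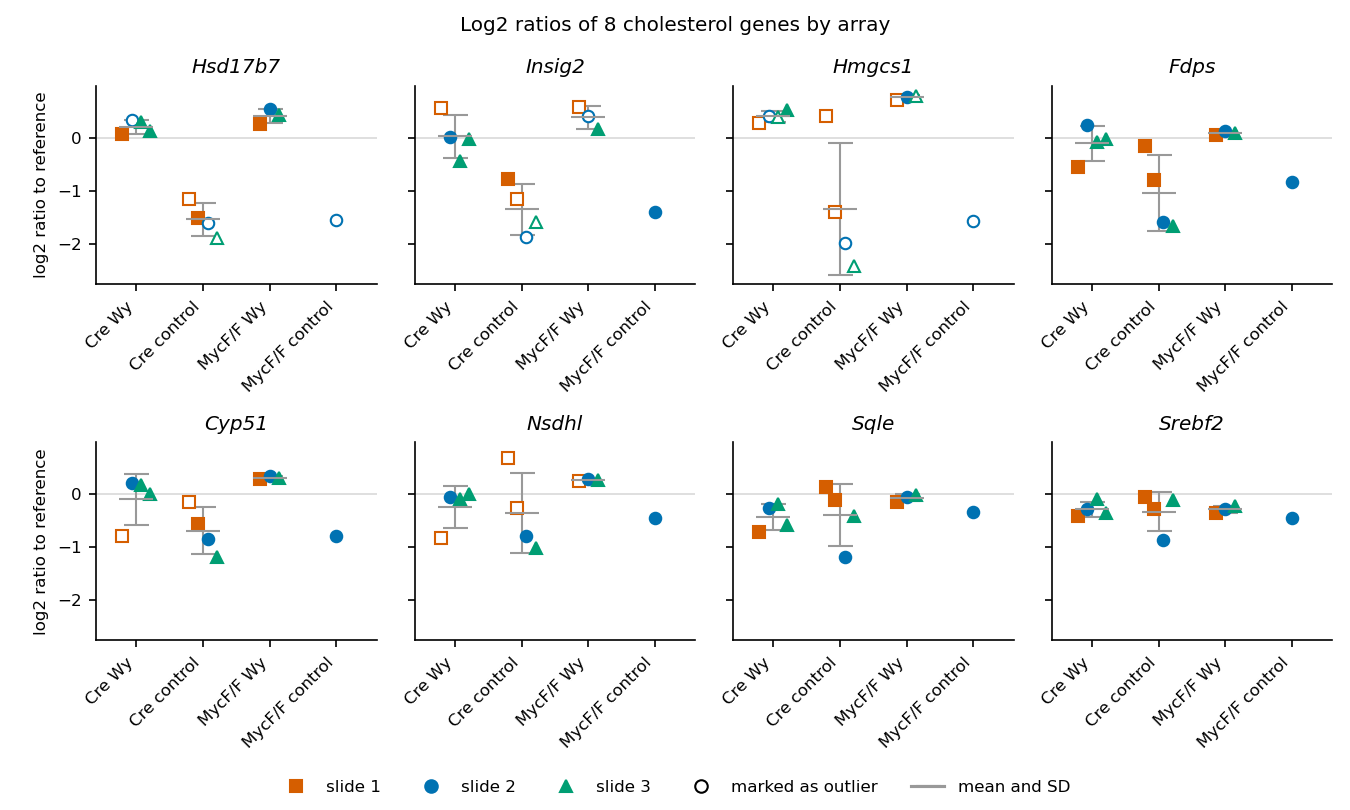
Log2 Cy5/Cy3 ratio of 8 cholesterol genes on each array, by group (1 point an array, coloured and shaped by slide; open points are spots marked as outliers; grey lines are the mean and SD; Cre stands for MycF/F,ERT2-Cre). The Hsd17b7 and Insig2 arrays of the 2 diets do not overlap within either genotype, while Hmgcs1, Fdps, Cyp51 and Nsdhl overlap in MycF/F,ERT2-Cre livers through arrays of slide 1.

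Cyp51, the cytochrome P450 that demethylates lanosterol, overlapped between diets. Its log2 ratio was -0.80, 0.21, 0.17 and -0.0021 in Wy-14643-fed MycF/F,ERT2-Cre livers, against -0.15, -0.57, -0.85 and -1.18 in control-fed MycF/F,ERT2-Cre livers. It was 0.27, 0.33 and 0.30 in Wy-14643-fed MycF/F livers, against -0.80 in the MycF/F control. Wy-14643 replicate 1 of MycF/F,ERT2-Cre livers made the overlap, and its spot and that of control replicate 1, both on slide 1, were marked. Without these 2 spots Cyp51 rose by 1.00 (SE 0.14, adjusted p = 0.000751, n = 3 and 3), and with them the difference was 0.59 (SE 0.24, adjusted p = 0.125). 2 other Cyp51 probes, with no call either way, gave 0.53 and 0.46 (adjusted p = 0.159 and 0.127).

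Nsdhl, a dehydrogenase that takes part in removing the methyl groups of lanosterol, passed the test on all 3 slides together only without the marked spots. It read -0.83, -0.06, -0.09 and -0.0096 in Wy-14643-fed MycF/F,ERT2-Cre livers, against 0.67, -0.27, -0.80 and -1.01 in control-fed MycF/F,ERT2-Cre livers. MycF/F livers had 0.25, 0.28 and 0.26 on Wy-14643, against -0.45 on control diet. On slide 1 the Wy-14643 array lay below both control arrays, and on slides 2 and 3 every Wy-14643 array lay above the control arrays. The difference in MycF/F,ERT2-Cre livers was 0.85 (SE 0.11, adjusted p = 0.000918, n = 3 and 2) without the marked spots and 0.10 (SE 0.31, adjusted p = 0.875) with them. 2 other probes gave 0.75 (adjusted p = 0.00871) and 0.57 (adjusted p = 0.22) without the marked spots, and 0.33 (adjusted p = 0.438) and 0.20 (adjusted p = 0.785) with them.

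Msmo1, the methylsterol oxidase of the same steps, read -0.76, 0.09, 0.31 and 0.05 in Wy-14643-fed MycF/F,ERT2-Cre livers, against 0.23, -0.38, -1.09 and -1.06 in control-fed MycF/F,ERT2-Cre livers. The groups overlapped through their slide 1 arrays. It rose by 0.77 (SE 0.24, adjusted p = 0.0489, n = 4 and 3) without the marked control replicate 1 and differed by 0.50 (adjusted p = 0.292) with it. With slide as a block, without the marked spot, the difference was 0.74 (adjusted p = 0.0774). It read 0.26, 0.29 and 0.42 in Wy-14643-fed MycF/F livers, against -0.43 in the MycF/F control, a difference of 0.75 (adjusted p = 0.320). The other members of the group were not called. Dhcr7, the reductase of the last step, differed by 0.36 (adjusted p = 0.414). A second Dhcr7 probe rose by 0.89 (adjusted p = 0.00754) without its marked spots and differed by 0.50 (adjusted p = 0.188) with them. Sc5d, a desaturase, differed by 0.14 (adjusted p = 0.68), and Ebp, the sterol isomerase, by -0.03 (adjusted p = 0.902). Tm7sf2, a sterol reductase that shares its reaction with the lamin B receptor, differed by -0.50 (adjusted p = 0.0995). With slide 1 left out, Sc5d and Dhcr7 rose, by 0.46 (adjusted p = 0.00885) and 0.85 (adjusted p = 0.000936).

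Sterol-responsive promoters are known to pair SREBP sites with CCAAT boxes bound by NF-Y, so the 250 bases before the RefSeq start (GRCm38.p6) are shown for the 4 called members with the smallest adjusted p that have a window and a motif match. They lie at chr1:169969206-169969455 (minus strand) for Hsd17b7, chr5:4104698-4104947 (minus strand) for Cyp51, chrX:72918271-72918520 (plus strand) for Nsdhl and chr5:28071162-28071411 (plus strand) for Insig1. Each is printed 5′ to 3′ toward the start, and the capitals mark CCAAT, or ATTGG where the box is on the other strand.
Hsd17b7: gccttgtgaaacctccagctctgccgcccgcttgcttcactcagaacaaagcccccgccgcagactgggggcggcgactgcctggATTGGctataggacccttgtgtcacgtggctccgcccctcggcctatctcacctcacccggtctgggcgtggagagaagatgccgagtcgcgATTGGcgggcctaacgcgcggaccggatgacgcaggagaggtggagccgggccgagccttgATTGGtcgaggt
Cyp51: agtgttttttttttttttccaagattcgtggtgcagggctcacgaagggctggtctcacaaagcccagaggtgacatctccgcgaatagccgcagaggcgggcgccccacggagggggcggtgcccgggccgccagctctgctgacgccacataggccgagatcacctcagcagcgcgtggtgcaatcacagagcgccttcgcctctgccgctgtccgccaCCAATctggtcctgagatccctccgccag
Nsdhl: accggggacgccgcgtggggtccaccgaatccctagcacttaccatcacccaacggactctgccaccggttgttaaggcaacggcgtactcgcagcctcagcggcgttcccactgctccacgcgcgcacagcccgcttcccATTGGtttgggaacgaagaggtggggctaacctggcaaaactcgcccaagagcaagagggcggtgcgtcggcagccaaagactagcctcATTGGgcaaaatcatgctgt
Insig1: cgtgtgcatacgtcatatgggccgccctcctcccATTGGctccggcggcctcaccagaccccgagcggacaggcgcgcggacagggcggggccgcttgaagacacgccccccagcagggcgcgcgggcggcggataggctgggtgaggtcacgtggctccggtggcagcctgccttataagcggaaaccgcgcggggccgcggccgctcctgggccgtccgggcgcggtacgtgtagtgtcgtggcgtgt
Hsd17b7 held 3 boxes, whose first bases lay 165, 73 and 12 bases before the start. Nsdhl held 2, at 109 and 20 bases, and Cyp51 and Insig1 held 1 each, at 29 and 216 bases. Over all members with a RefSeq window, 20 of 23 held CCAAT on either strand, where 37.5% of 27025 genes did. The sterol element TCACNCCAC was found in 1 of 23, Hmgcs1, and in 1.22% of genes. The E-box CACGTG, which Myc with its partner MAX can bind, was in 5 of 23 (Dhcr7, Hsd17b7, Insig1, Sc5d and Scap) and in 6.86% of genes. The PPARα half-site pair AGGNCANAGGNCA was in none of 23 and in 0.4% of genes. No matches of different motifs overlapped. These are matches of letters within this window only.

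In the mevalonate and isoprenoid steps, 1 of 6 testable enzymes rose, Fdps, with a median difference of 0.70 over the 6. With marked spots kept it was 2 of 7, Fdps and Hmgcs1, with a median of 0.85. Hmgcs1, the cytosolic synthase that makes HMG-CoA, could not be tested without its marked spots, since no control spot was left. Kept, it read 0.27, 0.41, 0.38 and 0.53 in Wy-14643-fed MycF/F,ERT2-Cre livers, against 0.40, -1.39, -1.98 and -2.42 in control-fed MycF/F,ERT2-Cre livers. It was 0.70, 0.77 and 0.79 in Wy-14643-fed MycF/F livers, against -1.56 in the MycF/F control. Control replicate 1 alone lay within the Wy-14643 range. The difference was 1.74 in MycF/F,ERT2-Cre livers (SE 0.45, adjusted p = 0.0187) and 2.63 with slide 1 left out (adjusted p = 1.43e-06). A second Hmgcs1 probe had no marked spot and its groups did not overlap. It read -0.31, 0.14, 0.01 and 0.22 in Wy-14643-fed MycF/F,ERT2-Cre livers, against -0.88, -1.73, -2.50 and -2.63 in control-fed ones, a difference of 1.95 (SE 0.30, adjusted p over all probes = 0.000735).

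Fdps, which makes farnesyl pyrophosphate, read -0.55, 0.23, -0.08 and -0.03 in Wy-14643-fed MycF/F,ERT2-Cre livers, against -0.16, -0.79, -1.58 and -1.67 in control-fed MycF/F,ERT2-Cre livers. It was 0.04, 0.12 and 0.08 in Wy-14643-fed MycF/F livers, against -0.83 in the MycF/F control. The overlap came from replicate 1 of the 2 MycF/F,ERT2-Cre groups, both on slide 1. It rose 1.92-fold in MycF/F,ERT2-Cre livers, a difference of 0.94 (SE 0.28, adjusted p = 0.0386, n = 4 and 4) that was -0.07, 1.82 and 1.61 on slides 1, 2 and 3.

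Pmvk and Mvd, which phosphorylate and decarboxylate mevalonate intermediates, passed the test with slide as a block. Pmvk read 0.51, 0.30, 0.18 and 0.08 in Wy-14643-fed MycF/F,ERT2-Cre livers, against 0.33, -0.25, -1.34 and -1.33 in control-fed MycF/F,ERT2-Cre livers. It was 0.85, 0.34 and 0.30 in Wy-14643-fed MycF/F livers, against -0.89 in the MycF/F control. Control replicate 1 again reached the range of the Wy-14643 arrays. The difference in MycF/F,ERT2-Cre livers was 0.91 (adjusted p = 0.227, n = 2 and 3) and with the slide block 1.47 (adjusted p = 0.000937), while a second probe with no marked spot rose by 1.07 (SE 0.22, adjusted p over all probes = 0.00441). Both Wy-14643 arrays left without the marked spots lay on slide 3, the only slide with a Pmvk difference in that setting. With marked spots kept, the Pmvk difference was 0.47, 1.65 and 1.45 on slides 1, 2 and 3. Mvd read 0.26, -0.35, -0.12 and -0.39 in Wy-14643-fed MycF/F,ERT2-Cre livers, against -0.25, -0.63, -1.69 and -1.44 in control-fed MycF/F,ERT2-Cre livers. MycF/F livers had 0.20, 0.30 and 0.55 on Wy-14643, against -0.79 on control diet. On each slide the Wy-14643 array lay above the control arrays, and the difference was 0.85 (SE 0.27, adjusted p = 0.0507) without and 0.98 (adjusted p = 0.00774) with the slide block. Mvk, the first mevalonate kinase, differed by 0.54 (adjusted p = 0.179), or by 1.11 with slide 1 left out (adjusted p = 0.000206). Ggps1, which starts the geranylgeranyl branch, differed by 0.36 (adjusted p = 0.49), and Acat2, the cytosolic thiolase at the head of the pathway, by -0.31 (adjusted p = 0.256).

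Of the 3 enzymes from farnesyl pyrophosphate to lanosterol, Fdft1, squalene synthase, rose. It read -0.58, 0.08, -0.02 and -0.02 in Wy-14643-fed MycF/F,ERT2-Cre livers, against -0.18, -0.90, -1.58 and -1.65 in control-fed MycF/F,ERT2-Cre livers. It was 0.23, 0.22 and 0.15 in Wy-14643-fed MycF/F livers, against -1.12 in the MycF/F control. No Fdft1 spot was marked, and the overlap came from slide 1. The difference in MycF/F,ERT2-Cre livers was 0.94 (SE 0.27, adjusted p = 0.0317, n = 4 and 4), and -0.04, 1.66 and 1.63 on slides 1, 2 and 3. A second Fdft1 probe had the same sign but no call, with a difference of 0.09 (adjusted p = 0.542). It was dimmer, with a mean log2 intensity of 6.46 against 11.24, and well above background on 11 arrays. Sqle, the epoxidase and a known control point of the pathway, differed by -0.04 (SE 0.23, adjusted p = 0.942). Lss, lanosterol synthase, differed by 0.41 (adjusted p = 0.222). A second Lss probe rose by 0.90 (adjusted p = 0.0032) without its marked spot and differed by 0.58 (adjusted p = 0.189) with it.

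**Figure D4:**
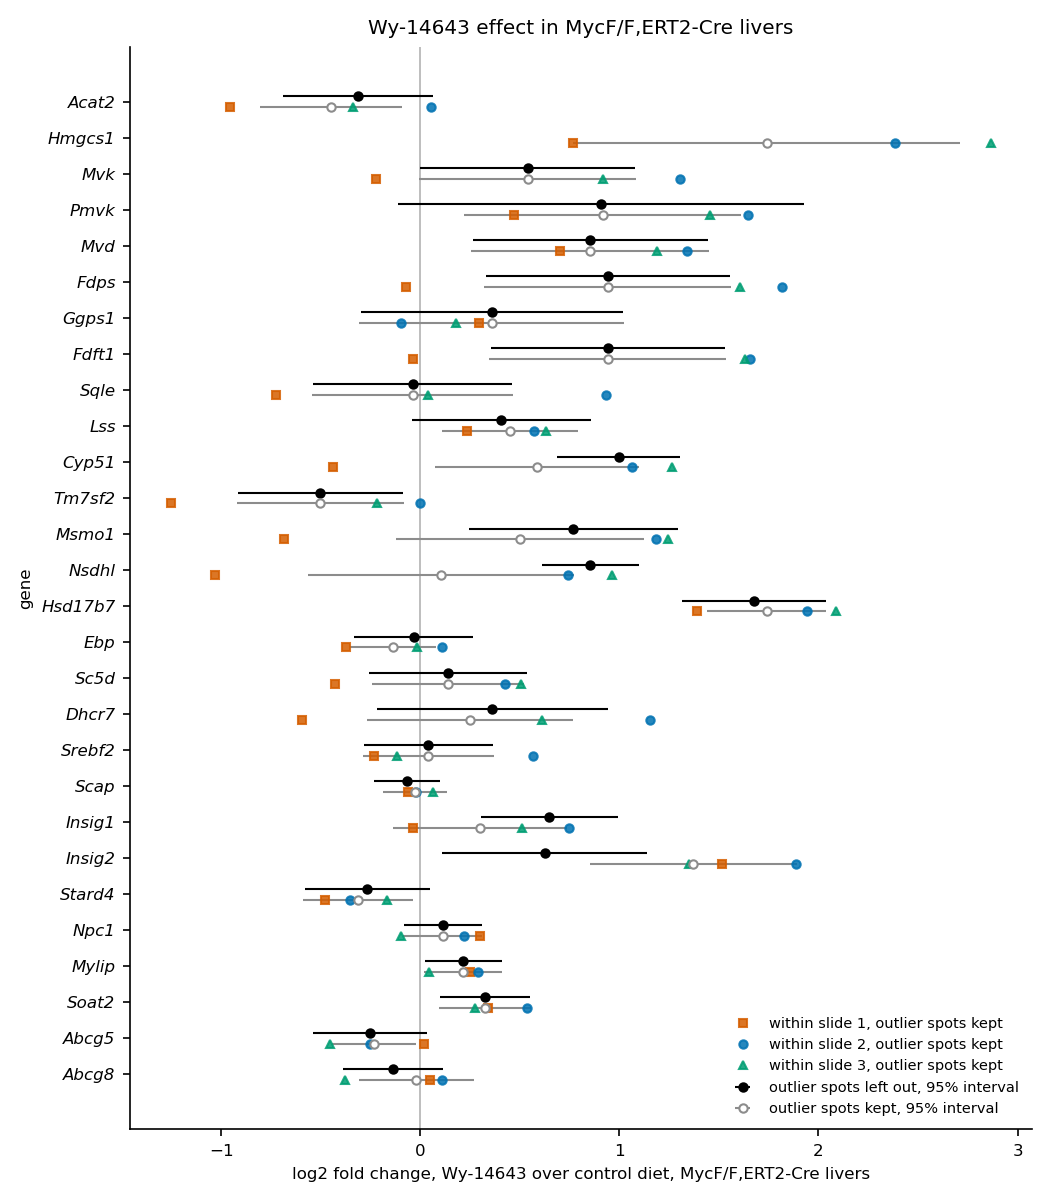
Wy-14643 over control difference (log2) of each member in MycF/F,ERT2-Cre livers, without the marked spots (black) and with them (grey), each with its 95% confidence interval, and within each slide (coloured shapes). Hsd17b7 lies at 1.68 and 1.74, and the slide 1 values of most enzymes lie left of those of slides 2 and 3.

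Among the sterol sensors, 1 of 4 rose in MycF/F,ERT2-Cre livers, Insig1. Srebf2 read -0.41, -0.29, -0.11 and -0.37 in Wy-14643-fed MycF/F,ERT2-Cre livers, against -0.07, -0.29, -0.86 and -0.12 in control-fed MycF/F,ERT2-Cre livers. It was -0.36, -0.28 and -0.24 in Wy-14643-fed MycF/F livers, against -0.45 in the MycF/F control. The groups overlapped, and the difference of 0.04 had a 95% confidence interval of -0.28 to 0.36 (adjusted p = 0.901). Scap read -0.14, -0.10, -0.20 and -0.14 in Wy-14643-fed MycF/F,ERT2-Cre livers, against 0.02, -0.18, -0.08 and -0.23 in control-fed MycF/F,ERT2-Cre livers. It was -0.19, -0.15 and -0.12 in Wy-14643-fed MycF/F livers, against -0.20 in the MycF/F control. It had the narrowest range of the 4 sensors, and its difference was -0.07 (95% confidence interval -0.23 to 0.10, adjusted p = 0.635).

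Insig1, itself a target of SREBP-2 and shown above with its promoter, read -0.37, -0.39, -0.32 and -0.38 in Wy-14643-fed MycF/F,ERT2-Cre livers, against 0.07, -0.74, -1.14 and -0.86 in control-fed MycF/F,ERT2-Cre livers. It was -0.12, -0.50 and -0.34 in Wy-14643-fed MycF/F livers, against -0.80 in the MycF/F control. Control replicate 1 was the highest MycF/F,ERT2-Cre array, and the other control arrays lay below all Wy-14643 arrays. The difference was 0.65 (SE 0.14, adjusted p = 0.0273, n = 2 and 2) without marked spots and 0.30 (adjusted p = 0.378) with them, and a second probe, missing only control replicate 1, rose by 0.54 (SE 0.09, adjusted p over all probes = 0.00191). Insig2, whose liver transcript in rodents is lowered by insulin, differed further with marked spots kept. It read 0.55, 0.02, -0.44 and -0.03 in Wy-14643-fed MycF/F,ERT2-Cre livers, against -0.77, -1.16, -1.87 and -1.58 in control-fed MycF/F,ERT2-Cre livers. MycF/F livers had 0.58, 0.40 and 0.16 on Wy-14643, against -1.40 on control diet. The diets did not overlap in either genotype, control replicate 1 included. Without marked spots 1 control array was left and the difference was 0.62 (SE 0.21, adjusted p = 0.112). With them it was 1.37 (SE 0.24, adjusted p = 0.00175), and a second probe with no marked spot gave 1.45 (SE 0.20, adjusted p over all probes = 0.000263). Hsd17b7 and Insig2 were the 2 members whose 4 Wy-14643 and 4 control arrays did not overlap in MycF/F,ERT2-Cre livers, both upward, where 10.5% of all genes were separated upward and 8.49% downward.

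None of the 6 transport, uptake, esterification and efflux members passed the test over all slides in MycF/F,ERT2-Cre livers, with or without the marked spots, and their median difference was -0.01. Soat2, which esterifies cholesterol in hepatocytes, came nearest. It read 0.05, -0.08, 0.00078 and -0.29 in Wy-14643-fed MycF/F,ERT2-Cre livers, against -0.27, -0.31, -0.62 and -0.42 in control-fed MycF/F,ERT2-Cre livers. It was -0.30, -0.08 and -0.33 in Wy-14643-fed MycF/F livers, against -0.33 in the MycF/F control. The MycF/F,ERT2-Cre groups overlapped by 1 array, and the difference was 0.32 (SE 0.10, adjusted p = 0.0527), or 0.36 (adjusted p = 0.0328) with the slide block. Mylip, the ubiquitin ligase that degrades the LDL receptor, differed by 0.22 (adjusted p = 0.13), and Npc1, which exports cholesterol from lysosomes, by 0.11 (adjusted p = 0.467). Abcg5 and Abcg8, which form the sterol exporter of the bile canaliculus, differed by -0.25 (adjusted p = 0.231) and -0.14 (adjusted p = 0.489). With slide 1 left out and marked spots kept, Abcg5 fell by 0.39 (adjusted p = 0.0204). Probes disagreed for Abcg8, since a second, complete probe rose by 0.49 (SE 0.13, adjusted p over all probes = 0.0182). Stard4, a carrier of cholesterol between membranes, differed by -0.27 (adjusted p = 0.255), and a second, complete probe fell by 0.67 (adjusted p over all probes = 0.00179).

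Over the 16 members with more than 1 probe, 16 of the 19 other probes had the sign of the probe used, the exceptions being in Ggps1, Mylip and Abcg8. Of the 14 other probes measured on every array, 5 rose (Hmgcs1, Pmvk, Hsd17b7, Insig2 and Abcg8) and 1 fell (Stard4), where 9.52% of all single probes rose and 7.02% fell. For the same diets in MycF/F livers, 18 of the 19 had the sign of the probe used, and 3 of the 14 rose (Hmgcs1, Hsd17b7 and Insig2) and 1 fell (Stard4), where 3.47% of all single probes rose and 3.08% fell.

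In MycF/F livers the same diets were compared on 3 and 1 arrays, none of which entered the difference above apart from the common reference RNA. The spread in both tests was estimated over all 12 arrays, so the p-values of the 2 comparisons are not independent. Of 24 testable members 3 rose and none fell: Cyp51 2.14-fold (adjusted p = 0.00761), Nsdhl by 0.73 (SE 0.14, adjusted p = 0.0202) and Insig2 by 1.56 (SE 0.26, adjusted p = 0.0199, n = 1 and 1). Of all genes 3.26% rose and 3.25% fell, and the median difference was 0.23 over the members and near 0 over all genes. With marked spots kept 2 of 28 rose, Hsd17b7 by 1.95 (SE 0.22, adjusted p = 0.000264) and Insig2 by 1.78 (SE 0.39, adjusted p = 0.0175), where 3.04% of all genes did. Hmgcs1 differed by 2.32 (SE 0.73, adjusted p = 0.0936), the widest difference of the 28 and among the widest errors. Cyp51 and Nsdhl did not pass the test with marked spots kept. The Cyp51 difference was unchanged, since none of its MycF/F spots was marked. Only its spread changed, which then took in the 2 marked Cyp51 spots of MycF/F,ERT2-Cre livers. The Nsdhl difference with marked spots kept was 0.72. Of the enzymes, 15 of 18 were higher on Wy-14643, with a median difference of 0.696. 20 of the 28 members had all 3 Wy-14643 arrays above the control array and 3 had all below it (Acat2, Npc1 and Abcg5), where 29.8% and 31.4% of all genes did. The single control array was of pooled liver, so its value carries no spread of its own and the test borrows that of the other groups. With 1 array left out at a time 1 to 5 rose, 1 without MycF/F Wy-14643 replicate 3 (2.16% of all genes) and 5 without MycF/F,ERT2-Cre control replicate 1 (3.72%). With slide 1 left out 10 members rose (5.75% of all genes), and 12 with marked spots also kept (5.86%).

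Between genotypes on Wy-14643 no member was called (0 of 28, where 0.103% of all genes were called in either direction), and 3 members had an unadjusted p under 0.05. These were Mylip with a MycF/F,ERT2-Cre minus MycF/F difference of 0.31 (SE 0.10, 95% confidence interval 0.10 to 0.52, adjusted p = 0.281), Npc1 with 0.29 (adjusted p = 0.343) and Nsdhl with -0.33 (adjusted p = 0.378). They are named here after their values were seen. With slide 1 left out 1 member was lower, Mvd, with -0.71 (adjusted p = 0.0497), where 0.302% of all genes were lower, and it missed the threshold with marked spots also kept (adjusted p = 0.0528). Mylip read 0.24, 0.37, 0.38 and 0.16 in MycF/F,ERT2-Cre livers, against -0.18, 0.09 and 0.02 in MycF/F livers, and the groups did not overlap. A second Mylip probe differed by 0.18 (SE 0.09, adjusted p over all probes = 0.699). With marked spots kept, 17 of 18 enzymes had a lower mean in MycF/F,ERT2-Cre livers, all but Ggps1, with a median difference of -0.267. The enzyme mean was -0.019 ± 0.204 in MycF/F,ERT2-Cre livers (SD, n = 4) and 0.245 ± 0.071 in MycF/F livers (SD, n = 3). Within slides 1, 2 and 3 the enzymes were lower for 16, 16 and 18 of 18, with medians of -0.447, -0.111 and -0.217. The enzymes move together from array to array, so these counts are not independent observations. 6 members, all enzymes, had every MycF/F,ERT2-Cre array below every MycF/F array (Hmgcs1, Fdft1, Sqle, Cyp51, Nsdhl and Ebp) and 2 had every array above (Npc1 and Mylip), where 5.25% and 5.81% of all genes did. For Hsd17b7 the 95% confidence interval of the difference ran from -0.50 to 0.01 without the marked spots. With the marked spots kept the Hsd17b7 difference was -0.20 (SE 0.15).

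**Figure D5:**
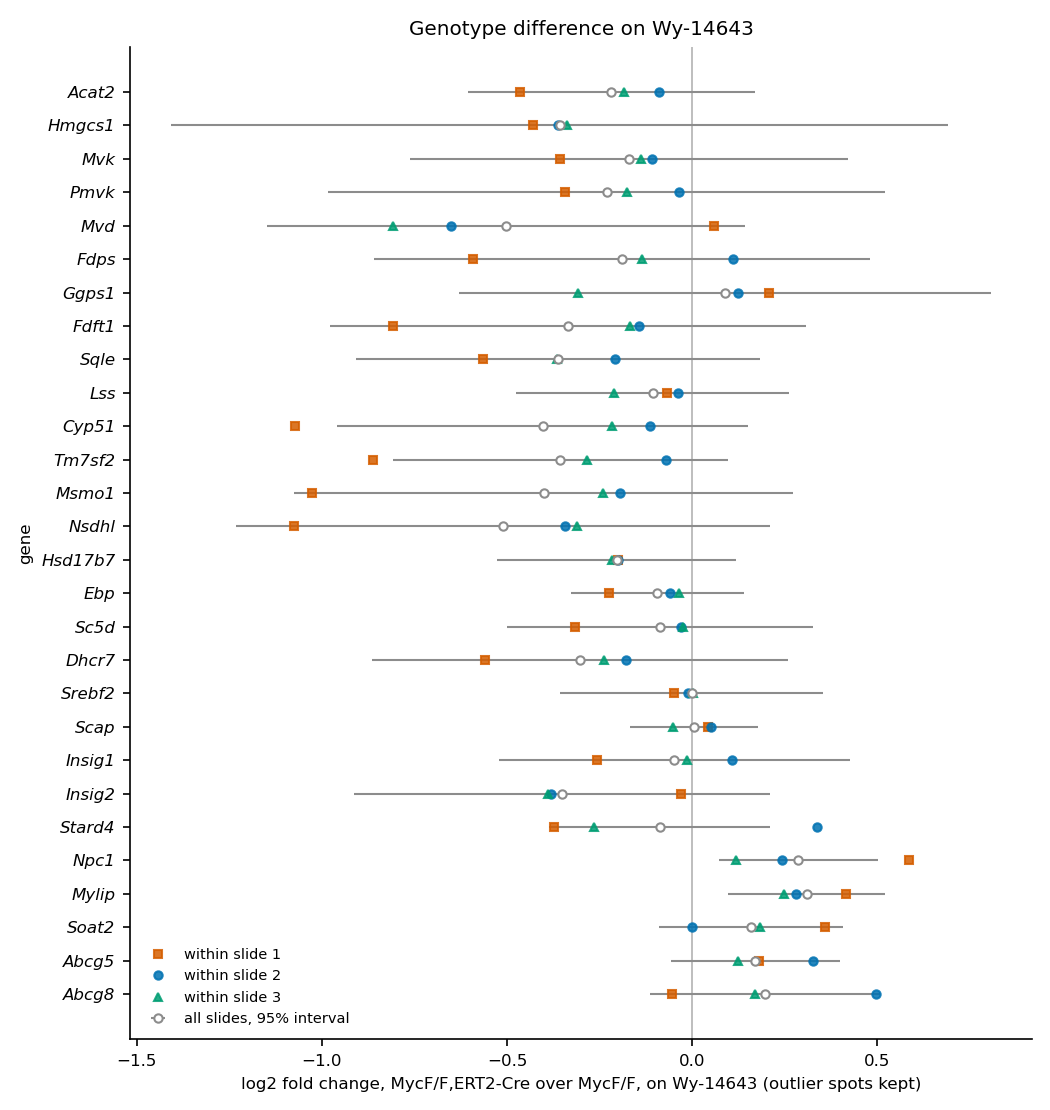
MycF/F,ERT2-Cre over MycF/F difference (log2) of each member in livers on Wy-14643, marked spots kept, with its 95% confidence interval (grey) and the value within each slide (coloured shapes). 17 of the 18 enzymes, from Acat2 down to Dhcr7, have a negative difference, and no member passed the test.

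On control diet, where a single MycF/F array stands against 4, no member and no gene was called between genotypes by limma, and 2 members and 447 genes had an unadjusted p under 0.05. The enzymes split evenly, with 9 of 18 higher in MycF/F,ERT2-Cre livers. On slide 2, which holds both genotypes on control diet, 17 of 18 enzymes were lower in the MycF/F,ERT2-Cre array, with a median difference of -0.405 from 1 array each. The difference between the 2 drug effects was tested directly and was called for 0 of 24 members and for no gene, with 1 member, Insig2, and 540 genes at an unadjusted p under 0.05. With marked spots kept it was called for 0 of 28 members and for no gene, with 0 members and 459 genes at an unadjusted p under 0.05.

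Genes around the pathway gave a mixed picture when Wy-14643-fed MycF/F,ERT2-Cre livers were set against control-fed ones. In that comparison 9.09% of all genes rose and 7.26% fell. Of 9 other cholesterol synthesis genes 1 rose and 2 fell, Acat1, the mitochondrial thiolase that also serves ketone bodies, rising by 1.45 (adjusted p = 2.05e-06) and Cyb5r3, a reductase that supplies electrons to sterol desaturation, falling by 0.41 (adjusted p = 0.0487). Of 8 other uptake, trafficking and storage genes 2 rose and 2 fell. The cholesteryl ester and acetyl ester hydrolase Nceh1 rose by 1.84 (adjusted p = 9.97e-06), whereas the HDL receptor Scarb1 fell by 0.78 (adjusted p = 0.000121) and Soat1 fell by 0.49 (adjusted p = 0.00559). Of 8 genes of SREBP processing and turnover none rose and 1 fell, Srebf1, by 0.71 (adjusted p = 0.0101). Of LXR and its targets 2 of 8 rose and none fell, Lpcat3, a phospholipid acyltransferase, by 2.00 (adjusted p = 9.44e-07) and Pltp by 0.71 (adjusted p = 0.0238). Pltp differed by 0.32 with marked spots kept (adjusted p = 0.433). Of 6 genes that use isoprenoids for dolichol, ubiquinone or prenylation, Coq2 rose by 0.29 (adjusted p = 0.0451) and Dhdds fell by 0.59 (adjusted p = 0.0025), and Coq2 differed by 0.13 with marked spots kept (adjusted p = 0.517). Of 10 lipogenic genes driven by SREBP-1, 2 rose and 2 fell, Fads2 rising by 1.19 (adjusted p = 0.000719), Acly falling by 1.72 (adjusted p = 0.000353) and Elovl6 falling by 1.45 (adjusted p = 0.00584).

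In MycF/F livers the same lists gave 1 rise of 8 other synthesis genes, 1 rise and 1 fall of 8 uptake genes, none of 8 SREBP processing genes, 1 rise of 8 LXR genes, none of 6 isoprenoid users, 1 rise and 2 falls of 10 lipogenic genes, and 6 rises of 8 PPARα targets. Of all genes in MycF/F livers, 3.26% rose and 3.25% fell. None of the 10 lipogenic genes was called with marked spots kept. Between genotypes on Wy-14643 none of these lists had a member called, where 0.103% of all genes were called in either direction. The exception with marked spots kept was Lcat of the LXR list, which was higher by 0.55 in MycF/F,ERT2-Cre livers (adjusted p = 0.0336), against 0.53 (adjusted p = 0.17) without them. Some markers of other liver cells also passed the test in MycF/F,ERT2-Cre livers. There 9.09% of all genes rose and 7.26% fell, and most marker lists are too short to set against such shares. The mean of the Kupffer cell markers was -0.425 to -0.200 in Wy-14643-fed and 0.106 to 0.896 in control-fed MycF/F,ERT2-Cre livers, and 6 of its 7 genes fell. It was -0.827 to -0.423 in Wy-14643-fed MycF/F livers, against 0.215 in the MycF/F control. Of the markers of other cells in MycF/F,ERT2-Cre livers, 3 of 6 stellate, 2 of 4 lymphocyte and 1 of 5 endothelial genes fell, as did 1 of 2 erythroid genes, and no gene of these 4 lists rose. Of 5 cholangiocyte markers Sox9 rose by 0.55 (adjusted p = 0.00715) and Spp1 fell by 0.55 (adjusted p = 0.00759). Of 3 intestine markers Fabp2 rose by 1.26 (adjusted p = 0.00468) and Apoa4 fell by 2.25 (adjusted p = 0.00294). Neither of the 2 markers of steroid-making cells was called. The mean of the hepatocyte markers was -0.218 to 0.061 on Wy-14643 and 0.492 to 0.760 on control diet in the same livers, and 2 of 5 fell, Alb and Ttr. The part of any of these in the differences of the cholesterol genes was not tested.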

How the data were processed

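2-colour Agilent arrays of 12 mouse liver RNA samples were read from the deposited scanner files. Per the file headers these were made with Agilent Feature Extraction 11.0.1.1 and hold an intensity for each spot in Cy5 and Cy3 and a log10 ratio of the deposited processed signals; the labels place the sample in Cy5 and the reference in Cy3 on every array, so a dye effect cannot be separated from a level but cancels between groups. Intensities were corrected with limma 3.58.1 in R 4.3.3 (normexp, offset 50), normalized by loess within each array, and expressed as log2 Cy5/Cy3. Outlier-marked spots were removed and the remaining spots of each probe averaged. A probe was kept if at least 0.5 of its Cy5 spots were well above background on at least 3 arrays (31846 probes), and the brightest kept probe stood for a gene, by mean intensity. 16792 of 17440 RefSeq mRNA accessions matched the RefSeq table and 14627 of the 25260 entries carried a symbol. The array header names an older build, so no probe was placed on the genome. The fit over all 12 arrays had 1 mean for each group and 8 residual degrees of freedom, and p-values were two-sided and Benjamini-Hochberg adjusted over all genes, with 4229 genes missing at least 1 array. Alternatives covered the background correction, normalization, filters, probe rule, outlier marks, slide, replicate block and leaving out each array, some of them chosen after seeing the data. The members and gene lists were chosen with earlier results of these data known. Every member could be named, with all arrays printed for those past the threshold in any comparison or under the slide block and for Srebf2, Scap, Insig1 and Insig2; Hmgcs1 and Mylip were added after their values were seen, and the other lists name at most their 3 genes of smallest adjusted p. On simulated arrays for the drug comparison in MycF/F,ERT2-Cre livers (25260 genes) the fit recovered 46%, 88%, 96% and 98% of 50 genes each changed by 0.5, 1, 1.5 and 2 on the log2 scale. The simulated noise was drawn separately for each gene, with no slide or array effect. These shares may therefore not hold for the enzymes, which move together from array to array. The number of arrays limits the precision: the median standard error in that comparison was 0.107.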

Additional observations from a re-analysis of the deposited data

Results flagged for a closer look

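Of 29 sets of arrays tested for a single distant array, 2 had one, and chance gives about 1 in 20. Fdft1 was -0.58 on MycF/F,ERT2-Cre Wy-14643 replicate 1, far below the other 3 arrays of its group. Sc5d was 0.55 on MycF/F,ERT2-Cre control replicate 1, far above the other 3 of its group. Both arrays were on slide 1, and neither spot was marked as an outlier.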

How the results depend on the processing

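Counts of members that rose after Wy-14643 in MycF/F,ERT2-Cre livers (7 by the main setting, none falling) changed with the setting. The number of all tested genes that rose is given in brackets. The counts were 4 with the deposited log ratio (1813 of 25162), 1 with Cy5 alone (615 of 25162) and 4 with no filter on dim probes (2249 of 33162). They were 11 with the mean of all kept probes (2345 of 25197) and 11 with a replicate block (2523 of 25163). Leaving out each array gave 3 to 13. The count was 13 without control replicate 1 (2143 of 25143) and 3 without control replicate 3 (2300 of 25105). It was 4 each without control replicate 4 (1869 of 25016) or Wy-14643 replicate 2 (1774 of 25160), 3 (1825 of 25144) or 4 (1667 of 25105). In MycF/F livers (3 rose, 813 of 24916) the counts were 1 with the deposited log ratio (543 of 24913) and 0 with Cy5 alone (152 of 24912). They were 5 with the probe measured on most arrays (805 of 25013) and 1 to 5 with each array left out. The count was 1 without MycF/F Wy-14643 replicate 3 (538 of 24872) and 5 without MycF/F,ERT2-Cre control replicate 1 (928 of 24916). Alternatives chosen after seeing the data gave 12 (2564 of 25045) for MycF/F,ERT2-Cre and 10 (1431 of 24900) for MycF/F livers without slide 1. With the marked spots also kept they gave 15 (2610 of 25260) and 12 (1479 of 25260). Abcg5 then fell in MycF/F,ERT2-Cre livers by 0.39 (adjusted p = 0.0204), where 1917 of 25260 genes fell. With the probe measured on most arrays 1 member fell in each, where 1776 of 25197 and 765 of 25013 genes fell. Abcg8 then changed sign in MycF/F,ERT2-Cre livers, to 0.49 (adjusted p = 0.0189). Between genotypes on Wy-14643, 1 member was lower without slide 1 (76 of 25125 genes were), Mvd by -0.71 (adjusted p = 0.0497), or 0.0528 with marked spots kept. The cause of each change was not tested. Over all settings run, Msmo1 was called in 12 of 26, Fdps in 15, Fdft1 in 18, Insig1 in 19, Cyp51 in 21, Nsdhl in 22 and Hsd17b7 in 23 of 24. Same-numbered samples correlated with a mean r of 0.18 and a lowest r of -0.10, so the numbers were not taken as pairs. Arrays of different groups on the same slide correlated with a mean r of 0.26 and a lowest r of 0.107. Across slides the mean r was -0.119. The main setting had no term for slide, and the slide block was an alternative. Over all genes, Cy5 alone called 615 higher and 657 lower in MycF/F,ERT2-Cre livers against 2288 and 1827, and 152 and 102 in MycF/F livers against 813 and 810, where the deposited log ratio called 543 and 503. A difference in MycF/F livers rests on a single control array.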
